A study of Mus musculus with 80 samples.

Results

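Cytosolic ribosomal proteins are the protein parts of the ribosome, the machine that reads mRNA and joins amino acids in the cytoplasm. Here they were followed as a gene family across 5 brain regions of virgin and primiparous mice. A gene was a member when its symbol was Rpl or Rps with a number (suffix a, l, x or y allowed), Rplp0 to Rplp2, Rpsa or Fau. Kinases of the Rps6k family and pseudogenes were left out. The rule found 72 of the 13016 genes with enough counts to be tested, among 27179 genes counted. Of these, 40 were Rpl genes, 27 were Rps genes, 3 were the stalk genes Rplp0, Rplp1 and Rplp2, and the other 2 were Rpsa and Fau. By subunit, 43 members belong to the large and 29 to the small subunit.

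RNA-seq was performed on the hypothalamus, hippocampus, neocortex (cortex below), cerebellum and amygdala of 16 C57BL/6 females (C57BL/6J in the methods of the study), of which 8 were virgins and 8 were primiparous. All mice came from 1 room at the Jackson Laboratory and were born within 3 days on either side of a shared date. Each primiparous female was housed with a male for 2 weeks from the age of 8 weeks, gave birth, and was sampled after its pups had been weaned. Virgins of the same age had no litter. By the methods of the study the virgins were kept 8 per cage, and contact with males was limited to the primiparous females. Housing and male contact thus differ between the states together with the litter. The labels place the harvest 3 weeks after weaning. The methods of the study give a later time, which differed between animals by some days, since all tissue was taken in one session on a single day. Each animal gave 1 library per region, so that the 77 libraries form 10 groups of 8, with 7 in the virgin hippocampus, virgin cerebellum and virgin amygdala. As a model the groups hold a first litter, 1 strain and 1 harvest. Tissue came from the left hemisphere except for the hypothalamus, and each library sampled the RNA of a whole dissected region. In such bulk samples fewer cells of a type and less RNA per cell cannot be told apart.

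The libraries held 7959192 to 37871854 counted reads. Genes that mark a region were highest in that region for 6 of 6 hypothalamus markers, 6 of 6 cerebellum markers, 4 of 4 hippocampus markers and 4 of 5 cortex markers. For the amygdala this held for 1 of 5 markers, so the amygdala label rests on less. Several libraries stood apart. The hippocampus of primiparous animal 413 held 509 CPM (counts scaled by the library total) of cerebellum markers, compared with 30.3 to 50.8 CPM in the other hippocampus libraries. The cortex of primiparous animal 427 and the cerebellum of primiparous animal 4493 departed from their groups in the members, and the counts of members in those regions are given with and without them, while the comparisons between regions were fitted only with them. In that cortex library other genes under 1 kb departed as well, with a median log2 deviation from the mean of the region of 0.61, compared with 0.76 for the members and -0.29 for genes of 4 kb and over. The animals carry numbers of 3 or of 4 digits, and these are unevenly spread. Of the virgins 2 have a 3-digit number and 6 a 4-digit number, compared with 7 and 1 of the primiparous females.

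As background, each ribosome carries a single copy of nearly every one of these proteins, apart from the stalk proteins, which are present in several copies. Cells therefore make them in matched amounts. In mammals the mRNAs of these genes start with a C followed by a run of pyrimidines, the 5' terminal oligopyrimidine (TOP) motif. Through this motif the mTOR pathway and the RNA-binding protein Larp1 control how well the mRNAs are translated. The genes are strongly expressed in every tissue, neurons place their mRNAs in axons and dendrites as well as in the cell body, and inherited loss of a single copy of several of them causes Diamond-Blackfan anemia.

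The pyrimidine run can be read at the annotated start of many members. RefSeq promoter sequences (GRCm38.p6) matched 53 of the 72 members. Shown here are 30 bases, 15 before and 15 from the annotated start, 5' to 3' on the strand of the gene, with the longest run of C and T in capitals. Fau, Rplp2, Rpl27a and Rpl28 were chosen because they rose in the hypothalamus, Rpl13a because it rose in the cerebellum, Rps6 and Rpl15 because edgeR did not call them there and they have as clear a run, and Rpl10a and Rps2 because their runs are short.
Fau (chr19:6057932-6057961, plus strand): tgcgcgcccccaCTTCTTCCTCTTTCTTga
Rplp2 (chr7:141447636-141447665, plus strand): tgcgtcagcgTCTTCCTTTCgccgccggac
Rpl27a (chr7:109519180-109519209, plus strand): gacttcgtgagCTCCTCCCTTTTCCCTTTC
Rpl28 (chr7:4792950-4792979, plus strand): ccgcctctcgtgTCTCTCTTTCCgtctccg
Rpl13a (chr7:45128731-45128760, minus strand): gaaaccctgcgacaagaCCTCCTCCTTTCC
Rps6 (chr4:86857353-86857382, minus strand): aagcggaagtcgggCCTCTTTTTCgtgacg
Rpl15 (chr14:18270972-18271001, minus strand): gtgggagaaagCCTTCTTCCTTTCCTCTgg
Rpl10a (chr17:28328456-28328485, plus strand): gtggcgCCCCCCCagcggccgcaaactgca
Rps2 (chr17:24720048-24720077, plus strand): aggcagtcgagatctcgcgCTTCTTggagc
A run of at least 8 bases that are all C or T on the strand of the gene, within 10 bases before to 20 after the start, was present in 19 of the 53 members (35.8%). The same window held such a run in 11.3% of the tested genes with a sequence and in 11.2% of all 27025 promoters. The letters CCGGAAG on either strand, which are bound by transcription factors of the ETS family, were present in the 300 bases around the start of 35.8% of members, 17.4% of tested genes and 9.12% of all promoters. An annotated start can lie some bases from the start in use, so a missing run says only that these letters are not in this window.

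Most members were abundant transcripts. Averaged over all libraries the level ran from 10.1 CPM for Rps27l to 457 CPM for Rpl3, with a median of 136 CPM. Levels were also taken per kilobase of exon, which adjusts for length but not for reads that match several places. The median member reached 153 CPM per kb, and the median of tested genes was 10.1 CPM per kb. Of the tested genes 97.6% lay below the median member. Rplp1, an acidic protein of the stalk that recruits elongation factors, was the highest at 800 ± 215 CPM per kb (SD, n = 77). Rpl41, the shortest protein of the ribosome, followed at 563 ± 137 and Rps29 of the small-subunit head at 514 ± 112 CPM per kb, and the spreads of these neighbors overlap. The lowest were Rpl37rt, a retrotransposed copy that the deposited table names Rpl37, at 14.4 ± 3.93 CPM per kb and Rps27l, a divergent copy of Rps27, at 17.5 ± 4.09 CPM per kb. The level of Rps20, 27.0 CPM per kb, is divided by a transcript length that includes long alternative ends.

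The rule follows symbols, and the account of the family differs slightly by identifier. Matching by identifier gave 78 genes. It added 8 genes, among them Rpl37, Rpl8, Rps10, Rps28, Rps3a1, Rpl34 and Rps25, of which 6 carry no symbol in the deposited table, and dropped Rps27l and Rpl37rt. Rpl39 of the exit tunnel and Rpl3l, a muscle copy of Rpl3, were counted at means of 0.0729 and 0.315 CPM and did not reach the minimum for testing. Many members have processed copies elsewhere in the genome. In the annotation 56 of the 72 have at least 1 pseudogene named after them, with 24 for Rps12 and for Rpl31. Reads that matched several places were not counted, so a low level, as for Rpl39, need not mean low expression. How many reads this left out per gene was not measured. Members share the properties of short transcripts, with a median exon length of 818.5 bases compared with 3362 for tested genes. Of the members 48 were under 1 kb, compared with 4.36% of tested genes, while the median GC content was 51.7% and 50.5%. Only Rpl10, Rpl36a and Rps4x lie on the X chromosome.

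Added together, the members took close to 1% of all counted reads in each region. In virgin and primiparous females the summed share was 1.10% ± 0.0798 and 1.24% ± 0.0959 in the hypothalamus (SD, n = 8 and 8) and 1.00% ± 0.0365 and 0.943% ± 0.0635 in the hippocampus (n = 7 and 8). It was 1.08% ± 0.152 and 1.15% ± 0.298 in the cortex (n = 8 and 8), 0.884% ± 0.0579 and 0.974% ± 0.0864 in the cerebellum (n = 7 and 8), and 1.11% ± 0.124 and 1.14% ± 0.0674 in the amygdala (n = 7 and 8). In the cortex the library of primiparous animal 427 stood at 1.86%, and without it the primiparous mean was 1.05% ± 0.0920 (n = 7). In the cerebellum the difference between the states was 0.112 percentage points without primiparous animal 4493. The summed share is described here with no test.

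**Figure D1:**
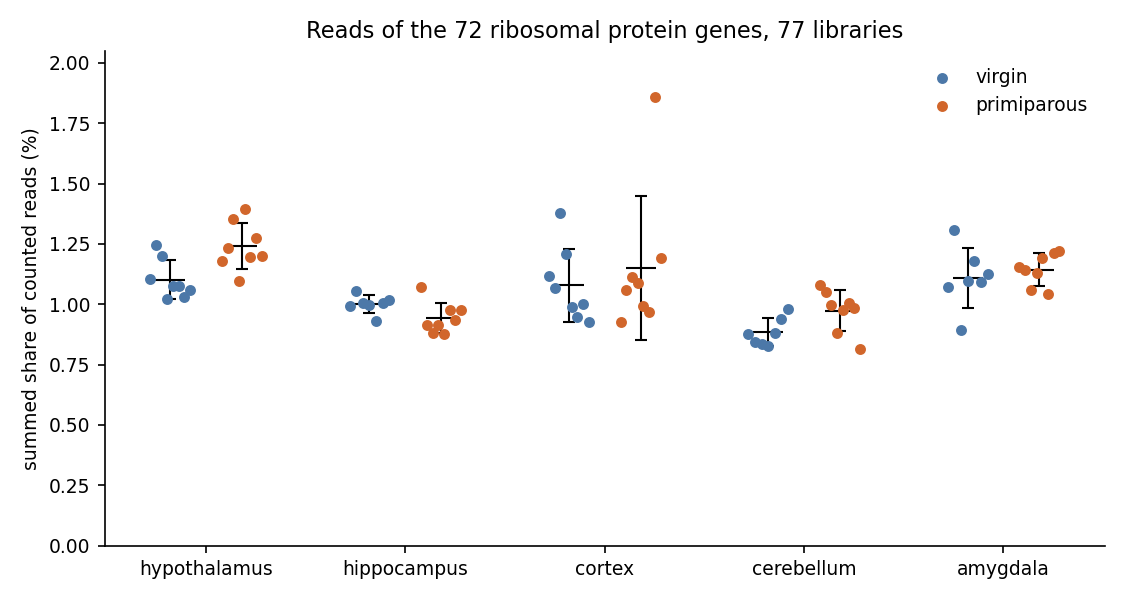
Share of counted reads taken by the 72 members together, in percent, for each library of the 10 groups, with points for libraries and bars for the mean ± SD. The primiparous hypothalamus (mean 1.24%) lies mostly above the virgin hypothalamus (1.10%), the lowest mean is that of the cerebellum in virgins (0.884%) and of the hippocampus in primiparous females (0.943%), and 1 primiparous cortex library lies apart at 1.86%.

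The first question was whether members differed between virgin and primiparous females within a region. In the hypothalamus 28 of the 72 members (38.9%) rose in primiparous females and 0 fell, at an adjusted p under 0.05 by edgeR's quasi-likelihood test with Benjamini-Hochberg adjustment over all 13016 genes. Over all genes 22.6% were called, 10.8% higher and 11.8% lower, and among other genes under 1 kb 19.5% were called higher. Over the members the log2 fold change had a median of 0.16 and was above 0 for 64 of 72, compared with a median of 0.01 over all genes. With the number series of the animals in the model 0 of 72 members were called, along with 0 genes higher and 3 lower over all genes, so that each rise in this region rests on the fit without it. With the length and GC correction described further on, the median was 0.077, with 58 above and 14 below 0. Both subunits were represented, with 17 of 43 large-subunit and 11 of 29 small-subunit members called. The folds of the called members were modest, from 1.12 to 1.49. The groups overlapped in each of the 72 members, which was not compared with other genes.

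Rpl36, a large-subunit protein, rose the most. Its level was 58.3 to 96.0 CPM in virgin libraries (median 66.5, n = 8) and 75.8 to 162 CPM in primiparous libraries (median 98.9, n = 8). The means were 70.1 ± 12.3 and 106 ± 27.2 CPM (SD), a log2 fold change of 0.57 ± 0.14 (SE, adjusted p = 0.0087). The groups overlapped through virgin animal 409, the highest virgin, and through primiparous animals 418 and 4493, the lowest of their group.

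Rps29, a zinc-binding protein of the small-subunit head, stood at 152 to 268 CPM (median 179) in virgins and 202 to 330 CPM (median 242) in primiparous females. Its log2 fold change was 0.42 ± 0.11 (adjusted p = 0.012), and virgin animal 409 was again the library that reached into the primiparous range.

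The 4 proteins that build the stalk, the flexible arm of the large subunit that calls in elongation factors, all rose. Rplp1 stood at 295 to 432 CPM (median 318) in virgins and 335 to 589 CPM (median 437) in primiparous females, a log2 fold change of 0.41 ± 0.10 (adjusted p = 0.007). Its partner Rplp2 stood at 94.8 to 143 CPM (median 105) and 100.0 to 182 CPM (median 148), with a log2 fold change of 0.37 ± 0.09 (adjusted p = 0.0079). With the length and GC correction described further on, Rplp1 stood at 0.17 (adjusted p = 0.018) and Rplp2 at 0.23 (adjusted p = 0.043). For these partners the primiparous values ran from within the virgin range to well above it. Rpl12, at the base of the stalk, changed by 0.29 ± 0.08 (adjusted p = 0.011), and Rplp0, which anchors it, by 0.20 ± 0.06 (adjusted p = 0.025). Rplp0 lost its call in 4 of the fits without 1 library, with an adjusted p of up to 0.061 (without primiparous animal 421).

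Rpl10a, which belongs to the mobile stalk on the other side of the large subunit, stood at 77.5 to 103 CPM (median 81.7) in virgins and 83.7 to 132 CPM (median 112) in primiparous females. Its log2 fold change was 0.38 ± 0.07 (adjusted p = 0.0021). Rps12, in the beak of the small subunit, stood at 95.5 to 136 CPM (median 104) and 117 to 177 CPM (median 145), a log2 fold change of 0.36 ± 0.08 (adjusted p = 0.0036). In each case most primiparous libraries lay above all but the highest virgin library.

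**Figure D2:**
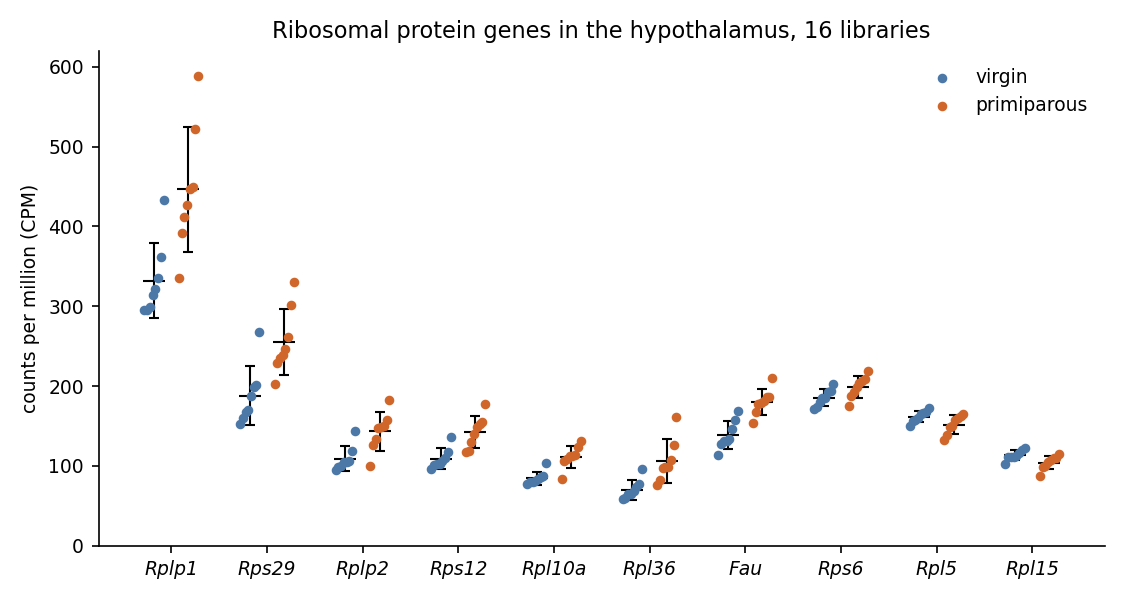
Level in CPM of 10 members in each hypothalamus library, virgin and primiparous, with points for libraries and bars for the mean ± SD. Rplp1, Rps29, Rplp2, Rps12, Rpl10a, Rpl36 and Fau rose with overlapping groups, and Rps6, Rpl5 and Rpl15 did not pass edgeR's test of reproductive state.

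Fau encodes Rps30 fused to a ubiquitin-like protein that is cut off after translation. Its level was 114 to 169 CPM (median 133) in virgins and 154 to 211 CPM (median 180) in primiparous females, a log2 fold change of 0.36 ± 0.07 (adjusted p = 0.0021). All 8 primiparous libraries lay above the virgin mean, and with the length and GC correction Fau stood at 0.14 (adjusted p = 0.0695). Rps27a, which is made as a fusion with ubiquitin itself, differed by -0.10 ± 0.05 (adjusted p = 0.12).

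At the exit tunnel, through which the new protein leaves, 3 of 7 members rose. This compares with 28 of the 72 members and 10.8% of all genes called higher. These were Rpl26 (0.26, adjusted p = 0.0086), Rpl31 (0.19, adjusted p = 0.048) and Rpl19 (0.17, adjusted p = 0.046). Rpl23a, the docking site of the signal recognition particle, had a log2 fold change of 0.10, Rpl35 of 0.09, Rpl4 of 0.05 and Rpl17 of 0.02, with adjusted p-values of 0.178 to 0.792. Rpl31 lost its call in 11 and Rpl19 in 10 of the 16 fits without 1 library, with adjusted p-values of up to 0.106 (without virgin animal 4490) and 0.11 (without primiparous animal 421). With each library corrected for transcript length and GC content, as described further on, Rpl19 stood at 0.02, Rpl31 at 0.27 (adjusted p = 0.097) and Rpl26 at 0.19 with its call kept (adjusted p = 0.0098).

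Around the mRNA channel and in the head of the small subunit, 3 of 8 listed genes rose. Of the 72 members 28 rose, and of all genes 10.8%. Rps15 changed by 0.30 (adjusted p = 0.011) and Rps9, which helps keep decoding accurate, by 0.18 (adjusted p = 0.034). Rps28, which the symbol rule misses, changed by 0.43 (adjusted p = 0.0054). Rps2 at the entry of the channel differed by 0.17, Rpsa by 0.17, Rps23 by 0.15, Rps26 by 0.12 and Rps3 by 0.09, with adjusted p-values of 0.061 to 0.249. Rps9 lost its call in 9 of the fits without 1 library (adjusted p of up to 0.081, without primiparous animal 421), and with the length and GC correction Rps15 stood at 0.05 (adjusted p = 0.636), Rps9 at 0.04 and Rps28 at 0.27 with its call kept (adjusted p = 0.016).

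Rpl5 and Rpl11 bind the smallest ribosomal RNA and, when free of ribosomes, inhibit the p53 ubiquitin ligase Mdm2. Neither passed the test. Rpl5 stood at 150 to 172 CPM (median 162) in virgins and 132 to 165 CPM (median 154) in primiparous females, a log2 fold change of -0.11 ± 0.05 (adjusted p = 0.093). Rpl11 had a log2 fold change of 0.11 ± 0.06 (adjusted p = 0.173). Rpl15 had the lowest value of the family, -0.15 ± 0.05 (adjusted p = 0.053). It was called lower by DESeq2, with the strict filter, with scaling that left out the members and in fits without single libraries (adjusted p down to 0.018), and with the length and GC correction it turned to 0.03. Rps15a (-0.08) reached 0.049 in 1 of those fits.

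Rps6, the substrate of the S6 kinases downstream of mTOR, stood at 171 to 202 CPM (median 185) in virgins and 175 to 218 CPM (median 201) in primiparous females. The log2 fold change was 0.08 ± 0.05 (adjusted p = 0.241), and the groups overlapped over most of their range.

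Of 9 genes mutated in Diamond-Blackfan anemia 3 rose, compared with 28 of the 72 members and 10.8% of all genes. Among the 3 were Rps10, which the rule misses (0.27, adjusted p = 0.0093), and Rps19 (0.19, adjusted p = 0.021). With the length and GC correction Rps10 stood at 0.05 (adjusted p = 0.661), and Rps19 turned to -0.04. Rps7 (0.13), Rpl35a (0.17), Rps24 (-0.05), Rps26, Rpl5 and Rpl11 did not pass. Among 8 genes that have a close second copy or are one, 2 rose and 1 fell, where 10.8% of all genes were called higher and 11.8% lower. Rps27 (0.19, adjusted p = 0.033) and Rpl36a (0.22, adjusted p = 0.041) rose. Rpl22l1, a copy of Rpl22 outside the rule, fell by 0.25 on the log2 scale (adjusted p = 0.035). Rpl22 itself stood at -0.02, Rps27l at -0.14, Rpl3 at 0.06 and Rpl10 at 0.05, and none passed. Rps27 lost its call in 8 and Rpl36a in 10 of the fits without 1 library, with adjusted p-values of up to 0.072 (without virgin animal 4490) and 0.096 (without primiparous animal 415). With the length and GC correction Rps27 stood at 0.01 (adjusted p = 0.97), Rpl36a at 0.23 (adjusted p = 0.046) and Rpl22l1 at 0.07 (adjusted p = 0.553).

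The genes around the ribosome were called in both directions, and are to be read against the 10.8% of all genes called higher and 11.8% called lower. Of 12 translation elongation factors and other TOP genes 2 rose and 0 fell, with Eef1a2, the elongation factor of neurons, at 0.23 and Eef1d at 0.17. Of 30 initiation factors 2 rose, Eif3g (0.23) and Eif3b (0.16), and 7 fell, among them Eif2s1 (-0.30) and Eif4a2 (-0.29). Of 41 ribosome assembly genes 5 rose, among them Rrp9 (0.36) and Nob1 (0.26), and 2 fell, Pno1 (-0.31) and Dkc1 (-0.24). Of 20 genes of mTOR and TOP control 1 rose, the mTORC1 component Akt1s1 (0.31), and 5 fell, among them Larp4 (-0.34) and the S6 kinase Rps6kb1 (-0.29). With the length and GC correction described next, none of the genes named here passed (adjusted p-values of 0.171 to 0.964).

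Transcript length moved with the result. In the hypothalamus the median log2 fold change of genes outside the family was 0.12 for 503 genes under 1 kb, 0.08 for 1 to 2 kb, 0.02 for 2 to 4 kb and -0.04 from 4 kb. Members under 1 kb had a median of 0.18, with 21 of 48 called, and members of 1 to 2 kb a median of 0.09, with 7 of 20 called. With each library corrected for length and GC content, 14 members rose and 0 fell, of which 13 were among the 28, while 0.93% of all genes were called higher. Rpl36 then stood at 0.28 (adjusted p = 0.013) and Rplp1 at 0.17 (adjusted p = 0.018).

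**Figure D3:**
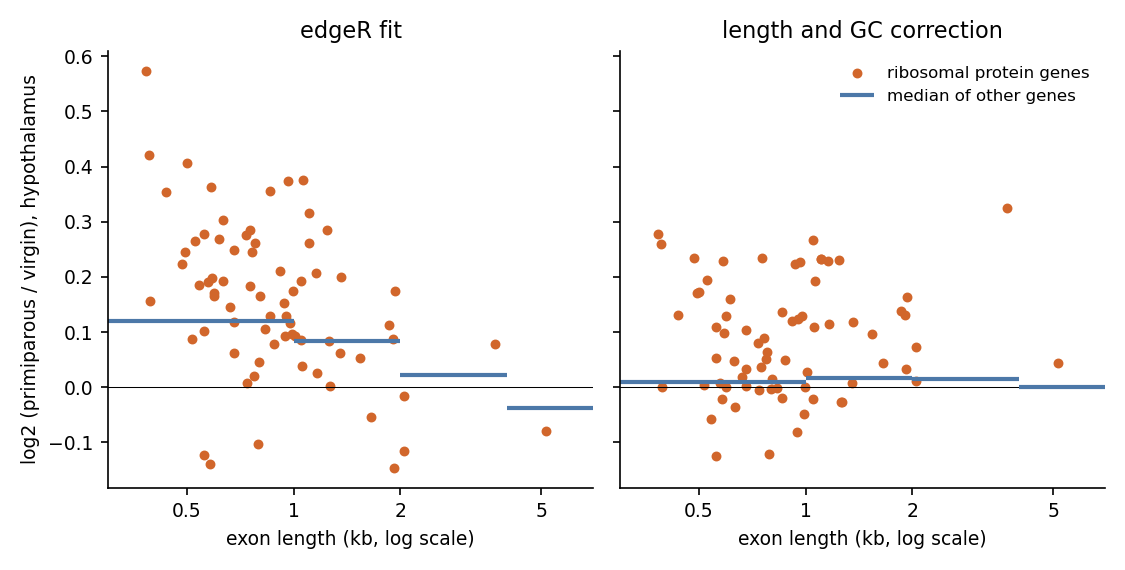
Log2 fold change in the hypothalamus, primiparous over virgin, of the 72 members against exon length in bases (log axis), by edgeR without and with the correction for length and GC content, with the medians of other genes by length class. Without correction the medians of other genes run from 0.12 under 1 kb to -0.04 from 4 kb.

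The animal numbers also moved with the groups. In the hypothalamus the summed share was 1.11% and 1.24% in the 2 virgins with 3-digit numbers and 1.10% to 1.39% (median 1.23%) in the 7 primiparous females with 3-digit numbers. In animals with 4-digit numbers it was 1.02% to 1.20% (median 1.07%) in 6 virgins and 1.20% in 1 primiparous female. With the number series as a covariate 0 of 72 members passed (smallest adjusted p = 0.167), with 21 at an unadjusted p under 0.05 (14.7% of all genes). The median over the 72 members was then 0.095, with 63 above 0. With 2 virgins and 1 primiparous female outside the main pattern of numbers, reproductive state and number series cannot be told apart with confidence.

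Markers of other cell types were measured beside the members. Of 3 blood markers 2 rose in the hypothalamus, Alas2 (0.72) and Hba-a2 (0.68), with summed levels of 25.1 to 53.1 CPM in virgins and 31.7 to 102 CPM in primiparous females. Among 8 oligodendrocyte markers Cnp rose (0.16) and 1 fell, and the sum of the list was 5296 to 6204 CPM and 5082 to 6248 CPM. Of 6 neuron markers Rbfox3 rose (0.17) and Snap25 (-0.19) and Syt1 (-0.15) fell (3607 to 3990 and 3484 to 3896 CPM), of 6 astrocyte markers 0 rose and Slc1a3 fell (-0.19, with sums of 1631 to 2020 and 1498 to 2383 CPM), and of 6 microglia markers none passed (258 to 281 and 262 to 320 CPM). Of 6 endothelial markers Cldn5 rose (0.41, with sums of 111 to 224 and 114 to 204 CPM), of 8 choroid plexus markers Ttr rose (1.52) and Prlr fell (-0.27, with sums of 91.4 to 115 and 85.2 to 114 CPM), and of 3 pituitary markers none passed (61.7 to 244 and 59.3 to 244 CPM). With the length and GC correction none of these called markers passed (adjusted p-values of 0.107 to 0.999). Among markers of regions, Pmch, a peptide gene of the lateral hypothalamus, fell by 0.56 on the log2 scale (adjusted p = 0.011, 1 of 6 hypothalamus markers), and the 6 summed to 798 to 1064 CPM in virgins and 887 to 1453 CPM in primiparous females. The cerebellum marker Pcp2 rose by 1.90 (adjusted p = 0.014) at mean levels of 0.234 and 0.938 CPM, with sums over the list of 20.8 to 32.3 and 19.5 to 34.0 CPM. The hippocampus marker C1ql2 rose by 0.39 (adjusted p = 0.0037), with sums of 37.4 to 44.4 and 41.6 to 53.2 CPM. With the correction these calls ended too, at -0.37 for Pmch (adjusted p = 0.145), 1.70 for Pcp2 (adjusted p = 0.097) and 0.20 for C1ql2 (adjusted p = 0.19). The part of these cell types and regions in the result was not tested.

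**Figure D4:**
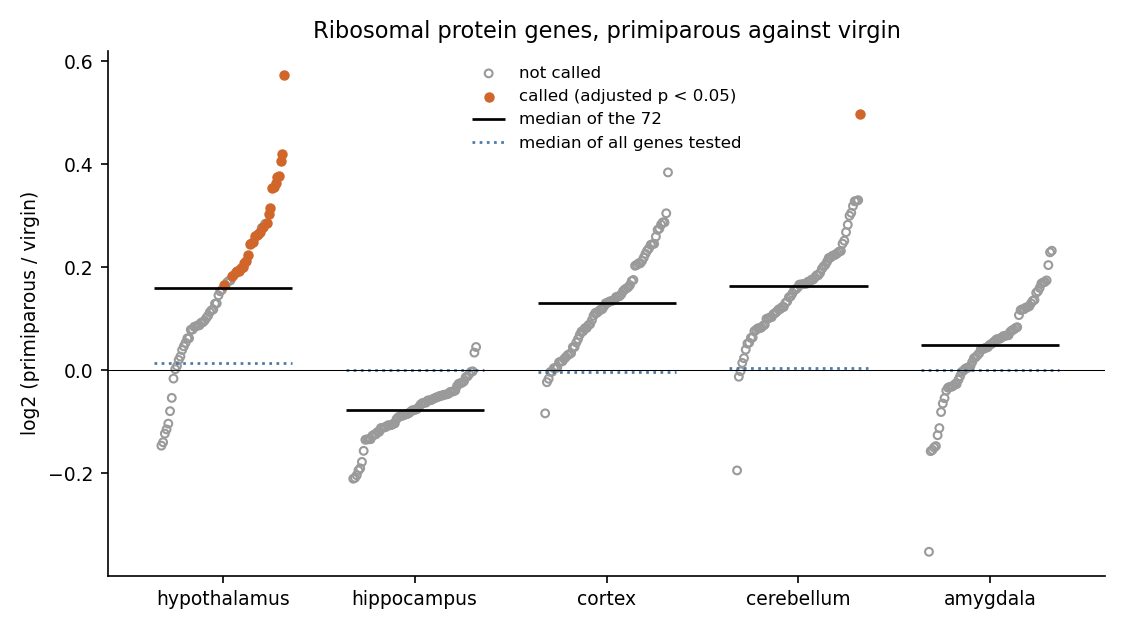
Log2 fold change, primiparous over virgin, of each of the 72 members in the 5 regions, with filled points for members called at an adjusted p under 0.05 and a line at the median. The hypothalamus holds 28 filled points above 0 and the cerebellum holds 1.

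In the cerebellum 1 of 72 members rose and 0 fell, where 0.707% of all genes were called, 0.599% higher, and 2.39% of other genes under 1 kb were higher. This was Rpl13a, which outside the ribosome takes part in silencing inflammatory mRNAs. Its level was 117 to 146 CPM (median 124, n = 7) in virgins and 142 to 217 CPM (median 184, n = 8) in primiparous females, so that the groups met only at their edges. The log2 fold change was 0.50 ± 0.08 (SE), the means were 129 ± 11.01 and 180 ± 23.1 CPM (SD), and edgeR's quasi-likelihood test gave an adjusted p of 0.0073. Without primiparous animal 4493 the log2 fold change was 0.54. The median log2 fold change over the members was 0.16, with 69 of 72 above 0 and 37 at an unadjusted p under 0.05, as were 19.5% of all genes. Other genes under 1 kb had a median of 0.12 here, and with the length and GC correction the median over the members was 0.049, with 51 above and 21 below 0. Without primiparous animal 4493, whose summed share was 0.816%, 31 members were called and 3.91% of all genes were called higher. DESeq2 called 15 members, along with 334 genes higher and 171 lower over all genes, and the length and GC correction called 6 members, with 2.4% of all genes higher under that correction. With the animal number series as a covariate 0 members and 0 of all genes were called, and Rpl13a stood at 0.36 (adjusted p = 0.579). Of the pathway lists Tpt1, a TOP gene, rose by 0.27. Of the marker lists, the oligodendrocyte gene Mbp (0.42), the astrocyte gene Aqp4 (0.30) and the microglia gene C1qa (0.42) rose, with summed levels in virgin and primiparous libraries of 4551 to 6034 and 5467 to 7664 CPM, 2716 to 3352 and 2946 to 3489 CPM, and 120 to 145 and 138 to 170 CPM. With the length and GC correction Mbp (0.47, adjusted p = 0.025), Aqp4 (0.30, adjusted p = 0.002) and C1qa (0.34, adjusted p = 0.033) kept their calls. Of the blood, choroid plexus and pituitary markers 0 were called, with median log2 fold changes of 0.91, 0.40 and 4.75. The summed pituitary markers were 1.39 to 5.88 CPM (median 1.77) in virgins and 1.25 to 148 CPM (median 9.44) in primiparous females. The summed blood markers were 41.1 to 60.7 CPM (median 49.4) and 44.8 to 149 CPM (median 94.3), and the summed choroid plexus markers 46.0 to 1328 CPM (median 67.1) and 56.2 to 3670 CPM (median 107). Their part in the result was not tested.

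In the hippocampus 0 of 72 members were called by edgeR, limma-voom or DESeq2. Over all genes edgeR called 0% and DESeq2 called 6 higher and 6 lower. At an unadjusted p under 0.05 there were 18 members and 7.38% of all genes. The log2 fold change was below 0 for 70 of 72, with a median of -0.08. Fau was the member with the smallest p, at 126 to 142 CPM (median 134, n = 7) in virgins and 107 to 132 CPM (median 114, n = 8) in primiparous females, a log2 fold change of -0.20 (adjusted p = 0.284). Without primiparous animal 413, 35 members had an unadjusted p under 0.05 and the median was -0.11, still with 0 called. Without primiparous animal 421 there were 10 such members with a median of -0.051, and with the length and GC correction 11 with a median of -0.049.

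In the cortex 0 of 72 members were called by edgeR, limma-voom or DESeq2. Over all genes edgeR called 0% and DESeq2 called 4 higher. At an unadjusted p under 0.05 there were 5 members (9.80% of all genes). The log2 fold change was above 0 for 67 of 72, with a median of 0.13. This rested on 1 library, since without primiparous animal 427 there were 35 above and 37 below 0. With the length and GC correction the median over the members was 0.033, with 50 above and 22 below 0. Rpl36 stood at 59.5 to 104 CPM (median 69.5, n = 8) in virgins and 55.5 to 149 CPM (median 90.5, n = 8) in primiparous females, a log2 fold change of 0.38 (adjusted p = 0.479), or 0.26 without animal 427. In the amygdala 0 of 72 members were called by the same tools, where edgeR called 0% of all genes and DESeq2 called 32 higher and 63 lower. The members had a median of 0.05, with 7 at an unadjusted p under 0.05 (11.9% of all genes). Rpl35 stood there at 87.0 to 116 CPM (median 102, n = 7) and 104 to 136 CPM (median 118, n = 8), a log2 fold change of 0.23 (adjusted p = 0.223).

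An interaction term then asked whether the difference between the states was of another size in the hypothalamus than in each other region. It was not fitted with the animal number series, so state and series cannot be told apart here either. The comparisons share the hypothalamus libraries. The shares of all genes given with them are from fits without the animal as a block and without the length and GC correction. Against the hippocampus 30 members had a larger log2 fold change in the hypothalamus and 0 a smaller one, where 6.81% of all genes were called in the first direction and 10.4% in the second. The difference was 0.65 for Rpl36, 0.55 for Rplp1, 0.54 for Rplp2, 0.49 for Rps12, 0.44 for Rps29 and 0.43 for Rpl10a. With the animal as a block 14 were called, which left out Rps29 (adjusted p = 0.083), and with the block and the length and GC correction 4, among them Fau, Rps12 and Rplp2. Against the amygdala 9 members had a larger fold change in the hypothalamus, where 9.78% of all genes did, and Rps27a had a smaller one (-0.30, where 8.45% of all genes did). The share of members with a larger fold change was near that of genes at large. Rpl36 led with a difference of 0.74, followed by Rpl28 (0.47), Rps29 (0.44) and Rpl10a (0.42). With the block and the correction none of these 10 was called, and Rpl35 was called with a smaller fold change in the hypothalamus (-0.37, adjusted p = 0.021).

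Against the cerebellum 1 member, Rpl10a (0.31), had a larger fold change in the hypothalamus, where 5.94% of all genes did. The other 6 called members had a smaller one, where 9.54% of all genes did. They were Rpl13a (-0.42), Rps27a (-0.36), Rpl15 (-0.33), Rpl5 (-0.28), Rpl22 (-0.27) and Rpl9 (-0.23). With the animal as a block 4 remained, Rpl13a, Rps27a, Rpl15 and Rpl10a. With the block and the correction 3 had a larger and 3 a smaller fold change, and Rpl13a and Rps27a were the 2 shared with the first fit. Against the cortex 0 of 72 members were called by edgeR or limma-voom, 0 had an unadjusted p under 0.05, and 0% of all genes were called.

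The second question was how members differ between regions, with each region set against the mean of the other regions in a fit of all groups. A member was called at an adjusted p under 0.05 and an absolute log2 difference of at least 0.5. Members varied little between regions. From the lowest to the highest region the range of their mean log2 level had a median of 0.41, from 0.14 for Rpl7a to 1.16 for Rps2, compared with a median of 0.65 over tested genes. Of the 72 members 41 were highest in the hypothalamus and 19 in the amygdala, compared with 30.2% and 8.08% of tested genes. The cerebellum was lowest for 37 and the hippocampus for 28, compared with 24.6% and 19.8%. These ranks use CPM scaled by library totals, without the TMM scaling of the fits, and depend on that choice. With TMM scaling the mean summed share in virgin and primiparous females was 1.05% and 1.17% in the hypothalamus. In the amygdala it was then 1.15% and 1.20%. The ranks were not counted on that scale.

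In the cerebellum 15 of 72 members (20.8%) were lower and 0 higher, where 21.7% of all genes were called lower, so the share of members was near that of genes at large. Rps2, at the mRNA entry site, differed the most. Its mean was 82.9 ± 12.03 CPM (SD, n = 15) in the cerebellum, 130 ± 17.3 in the hypothalamus (n = 16), 147 ± 11.8 in the hippocampus (n = 15), 149 ± 26.6 in the cortex (n = 16) and 190 ± 24.3 CPM in the amygdala (n = 15). The highest cerebellum library held 101.6 CPM and the lowest library of any other region 101.8 CPM, so that the cerebellum lay below all others. The log2 difference was -0.99 ± 0.05 (SE, adjusted p = 9.7e-30 by edgeR's quasi-likelihood test). The hippocampus and the cortex did not differ beyond their spread.

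Rplp1 followed the same order of extremes, at 268 ± 33.2 CPM in the cerebellum and 520 ± 63.9 CPM in the amygdala, with 387 to 430 CPM in the other regions. Its log2 difference in the cerebellum was -0.78. The X-linked Rpl36a (-0.72) and Rpl10 (-0.66), a protein close to the peptidyl transferase center, and Rpsa (-0.65), which also serves as a laminin receptor, were next. Rpl10 stood at 106 ± 8.52 CPM in the cerebellum and 197 ± 15.5 CPM in the hypothalamus, and its highest cerebellum library (121.6 CPM) lay just below the lowest library elsewhere (123.2 CPM). The other called members were Rpl41, Rpl3, Rpl12, Rps15, Rps19, Rps12, Rpl37a, Rps4x, Rps26 and Rpl37rt, at -0.50 to -0.60. With the length and GC correction 7 were called, under which the median of all genes moved by 0.10. The 21.7% of all genes given above belongs to the fit without this correction.

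**Figure D5:**
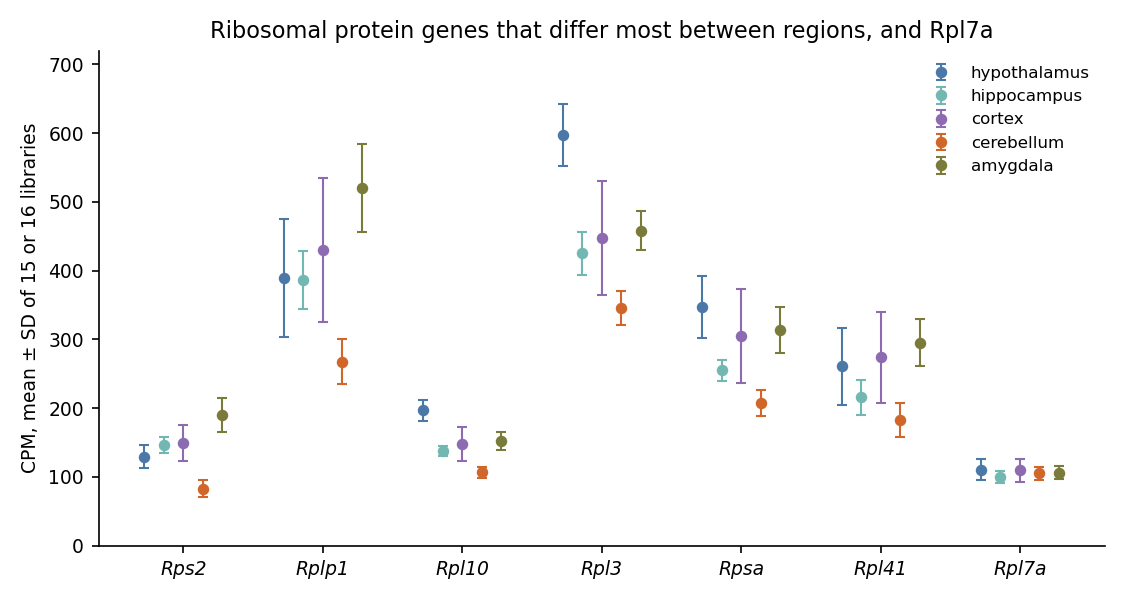
Mean level in CPM ± SD of Rps2, Rplp1, Rpl10, Rpl3, Rpsa, Rpl41 and Rpl7a in the 5 regions, over 15 or 16 libraries per region. The cerebellum is lowest for all but Rpl7a, which ranges from 99.9 to 111 CPM.

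In the amygdala 3 members were higher and 0 lower, where 12.7% of all genes were called higher and 6.25% lower. These were Rps2 (0.70), Rplp1 (0.60) and Rpl37rt (0.57). In the hypothalamus, where most members reached their highest mean CPM before TMM scaling, none passed the size criterion upwards in the TMM-scaled fit. Of all genes 15.2% did. Rpl10 came closest with 0.45. Rpl29, a large-subunit protein, was lower in the hypothalamus at -0.53 (adjusted p = 2.4e-12), where 14.4% of all genes were called lower. Rps6 was highest in the hypothalamus at 192 ± 13.7 CPM and lowest in the amygdala at 126 ± 8.69 CPM, opposite to the amygdala order of Rps2. In the hippocampus 0 of 72 members were called (10.6% of all genes higher, 9.62% lower), with 41 at an unadjusted p under 0.05, and the values ran from -0.32 for Rpl36 to 0.25 for Rpl22. In the cortex 0 were called (10.8% and 10.9%), with 49 at an unadjusted p under 0.05 and values from -0.11 for Rps9 to 0.43 for Rpl29. Rpl18 had the highest value in the cerebellum, 0.22, and Rps27l the lowest in the amygdala, -0.22.

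The pyrimidine run was set beside the result in the hypothalamus. Among members with a promoter sequence, a run of at least 8 bases was found in 10 of the 24 called members (41.7%) and in 9 of the 29 others (31.0%). Rpl15 and Rps6, printed above with long runs, were not called, while Rpl10a, with a run of 7, was. The letters CCGGAAG were found in 7 of the 24 called members (29.2%) and in 12 of the 29 others (41.4%). These are descriptions of the sequence windows, with no test.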

How the data were processed

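Poly(A) mRNA with ERCC spike-ins was sequenced as single-end reads of 100 bases. The authors aligned reads to mm10 with HISAT2 and counted unique reads per gene with featureCounts (versions and strand setting not given in the sources used here). The deposited counts are whole numbers. The deposited log2 values are, as tested on the file, log2 of the count over a size factor plus 4. The edgeR result columns of the deposited symbol table hold the authors' own comparisons and were not used.

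A gene was tested if 8 or more libraries reached 5 CPM. TMM-scaled counts were tested in edgeR 4.0.16 (R 4.3.3) by glmQLFit and glmQLFTest, per region for reproductive state over all 10 groups for regions and over the 4 groups of a pair of regions for interactions, with Benjamini-Hochberg adjustment over 13016 genes. Alternatives used limma 3.58.1, DESeq2 1.42.0, other scalings and filters, a length and GC offset (splines of 4 df, lengths for 97.0% of genes), the animal number series and each library left out. On simulated data with 200 genes changed 1.5-fold among 13016 in the hypothalamus, 97.5% were recovered with 11 unchanged genes called. For the interaction of hypothalamus and cerebellum 77% were recovered with 10 unchanged genes called. The simulation gave all genes the same dispersion and held no trend with length or number series. Its fold lies above those of the called members in the hypothalamus (1.12 to 1.49), so these figures do not give the recovery or error for them.

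The members and gene lists were chosen with earlier results of these data known. Named genes are, per region, the 6 members with the largest called change each way or, where none was called, the smallest p, the extremes between regions and of level, all members of the role lists, and up to 2 genes per direction of other lists, with some of these not reported here. The labels give the same animals in each region, which pairs the libraries. The median correlation of same-animal deviations over 10 pairs of regions was -0.019 to 0.104, compared with -0.024 to 0.008 for other animals. No pair of libraries agreed within sampling noise. Depth was 7959192 to 37871854 reads, and counting error bears most on the lowest members, Rps27l and Rpl37rt. Of 80 samples, 3 are labelled as not included. Symbols came from the deposited table (11939 genes) or RefSeq (965), with 112 unnamed.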

Additional observations from a re-analysis of the deposited data

Results flagged for a closer look

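In the primiparous cortex the summed share of the members in animal 427, 1.86%, lay far from the other libraries of its group. In the virgin hypothalamus animal 409 was apart in the same way for Rps29 (268 CPM) and Rpl10a (103 CPM). Of 30 groups of values examined, about 1 in 20 would be set apart by chance.

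For some members the difference between primiparous and virgin females was of another size in another region by the interaction test. The interaction was not fitted with the animal number series, which is unevenly spread over the states. Between hypothalamus and hippocampus 30 members differed in the positive and 0 in the negative direction, among them Rpl36 (0.65), Rps29 (0.44), Rplp1 (0.55), Rpl10a (0.43), Rplp2 (0.54) and Rps12 (0.49). The regions come from the same animals, and with the animal as a block 14 of the 30 were called, without Rps29. Over all genes 6.81% and 10.4% differed in these directions in the fit without the block. Between hypothalamus and cerebellum 1 member, Rpl10a (0.31), differed in the positive and 6 in the negative direction, which is no larger a share than the 5.94% and 9.54% of all genes. Between hypothalamus and amygdala 9 differed in the positive direction, including Rpl36 (0.74), Rps29 (0.44), Rpl10a (0.42) and Rplp2 (0.41), and 1 in the negative direction, compared with 9.78% and 8.45% of all genes. The positive share was near that of all genes, and the negative share was below it. Between hypothalamus and cortex 0 members and 0% of all genes were called. With the block and a correction for length and GC content, 4 of the 30 hippocampus calls and 0 of the 10 amygdala calls remained.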

How the results depend on the processing

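The count of 28 members in the hypothalamus became 14 with the length and GC correction, 0 with the animal number series as a covariate and 18 in 1 fit of all 10 groups. Leaving out 1 library at a time gave 19 (without primiparous 421) to 41 (without virgin 409 or primiparous 418), and 19 of the 28 kept an adjusted p under 0.05 in each such fit. The calls over all genes moved as well. In the main fit 1405 genes were higher, with 954 without primiparous 421, 1883 without virgin 409 and 1993 without primiparous 418. The 1 call of the cerebellum became 15 with DESeq2, 2 without a filter, 3 with a strict filter, 6 with the length and GC correction and 0 with the number series, and 1 to 31 with single libraries left out. In the hippocampus, cortex and amygdala the count stayed 0 with each library left out. With members matched by identifier, chosen after seeing the data, 33 of 78 were called in the hypothalamus.

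Against the other regions, a log2 difference of at least 1 left 0 in the hypothalamus, cerebellum and amygdala, the cerebellum had 7 with the length and GC correction, with and without the replicate block, and the amygdala had 5 in virgin libraries alone. With the animal as replicate block, the difference from the hippocampus held 14 members in place of 30 (6 with the length and GC correction, 4 with both), and from the cerebellum 4 in place of 7. From the amygdala 3 were called with the correction, 2 of them among the 10, and 1 with the block as well, which was not among the 10. From the cerebellum the correction called 10, and 6 together with the block. Without the correction the block moved no other count by over 1.5 times.

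The difference in summed share (primiparous minus virgin, in percentage points) with 1 library left out was 0.118 to 0.160 in the hypothalamus, -0.0756 to -0.0480 in the hippocampus, -0.0298 to 0.114 in the cortex, 0.0748 to 0.112 in the cerebellum and -0.0010 to 0.0675 in the amygdala. Of 1191 values for single genes, 1049 kept direction and call, 99 lost a call, 30 gained one and 13 reversed. Reversed in the hypothalamus were, with the length and GC correction, Rps24 (0.044), Rpl35 (-0.081), Rpl11 (-0.00058), Rpl22 (0.011), Rpl5 (0.074), Rps19 (-0.035) and Rpl10 (-0.0029), and with the number series Rpl22 (0.029) and Rpl10 (-0.024). Rpl22 also reversed with library totals (0.0057) and without virgin 4486 (0.0042) or primiparous 414 (0.0048), in a range of -0.044 to 0.0048 with single libraries left out, and Rpl17 without primiparous 415, in a range of -0.0014 to 0.046. Of these only Rps19 had been called. Outside this set of genes Rpl15 (0.03), Rps15a (0.04) and the called Rpl22l1 (0.07) turned as well with the length and GC correction. The causes were not tested.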
